A study of Mus musculus with 8 samples.

Results

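Mitochondrial solute carrier genes of the Slc25a family were taken as the protein-coding genes of GENCODE release M21 on mouse chromosomes 1 to 19 whose name is Slc25a followed by a number, which gave 43 of 20722 protein-coding genes. H3K36me3, trimethylation of lysine 36 of histone H3, was measured over their gene bodies by ChIP–seq in i4F MEFs, mouse embryonic fibroblasts with a doxycycline-inducible cassette of OCT4, SOX2, KLF4 and MYC (OSKM). All 4 groups carried this cassette and came from embryonic day 13.5 cells that the labels name Clone 1, and all were collected after 72 h in the same medium. MEF had neither addition, MEF B12 had 2 µM vitamin B12, OSKM had 1 µg/ml doxycycline, and OSKM B12 had doxycycline and 2 µM vitamin B12. In the samples analysed here each group was 1 H3K36me3 library with its own input library, so differences between groups are given without a p-value and their spread between cultures is unknown.

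Slc25a proteins are carriers, mostly of the inner mitochondrial membrane, that move nucleotides, phosphate, carboxylates, amino acids, cofactors and metals between the cytosol and the matrix. Slc25a26 brings S-adenosylmethionine, the methyl donor of histone methyltransferases, into the matrix, and Slc25a32 is linked to the transport of folate and flavin, so both stand next to the metabolism in which vitamin B12 takes part. H3K36me3 is laid down behind elongating RNA polymerase II and is typically found along transcribed gene bodies and low at their start sites. A peak in a gene body is a measure of the mark and not of the amount of RNA.

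The 4 peak lists came from 29046913 to 33399267 H3K36me3 tags, with the most tags in OSKM, and held 64364 to 67234 peaks on chromosomes 1 to 19. These peaks covered 91.8 Mb in OSKM and 150 to 163 Mb in the other libraries. Every value over peaks below moves with the bases called in a list, and the part of this genome-wide difference in the values of single genes was not tested. Of 10 fibroblast marker genes, 9 were marked in the sense defined below, with a mean covered share of 57.2% over the 10 genes in OSKM and of 69.98% to 72.1% in the other libraries. None of 8 pluripotency markers and none of 4 epithelial markers was marked, and Nanog and Esrrb were at 0 in all 4 lists. The pluripotency marker Zfp42 had 2.42% of its body in OSKM peaks.

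A carrier was called marked where at least 10% of its gene body, the span of the longest protein-coding transcript, lay in peaks of at least 1 list. By this measure 32 of the 43 carriers were marked, or 74.4%, compared with 46.4% of all protein-coding genes. Peaks covered at least 10% of 30 carriers in MEF (43.3% of all genes), of 23 in OSKM (36.3%), of 29 in MEF B12 (44.7%) and of 32 in OSKM B12 (44.9%). The 23 carriers past 10% in OSKM were past it in all 4 lists, and Slc25a27 and Slc25a45 passed only through OSKM B12. The marked carriers had a median gene body of 17700 bases, against 30242 bases for the 11 carriers that were not marked.

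Of the 11 carriers that were not marked, 8 had no peak in any list. They were Slc25a31, the ADP/ATP carrier of the testis, Slc25a23 and Slc25a41 of the ATP-Mg and phosphate carriers, Slc25a21, an oxodicarboxylate carrier, and Slc25a34, Slc25a35, Slc25a48 and Slc25a54, whose substrates are less well defined. A gene without a peak had no enrichment that could be called at this depth. The other 3 had peaks below 10% of their body in every list, namely Slc25a13 (at most 0.358%), Slc25a26 (at most 5.34%) and Slc25a33 (at most 9.19%).

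The carriers included related pairs of which 1 member was marked and the other was not, and their promoters are shown because the transcription that H3K36me3 follows starts there. RefSeq promoter windows on GRCm38.p6, from 250 bases before to 50 bases after an annotated start, were matched by symbol for 32 of the 43 carriers. The windows shown are those of Slc25a3, the carrier with the highest H3K36me3 density (chr10:91123918-91124217, minus strand), of the marked and unmarked ADP/ATP carriers Slc25a4 (chr8:46211013-46211312, minus strand) and Slc25a31 (chr3:40708621-40708920, plus strand), and of the marked and unmarked aspartate and glutamate carriers Slc25a12 (chr2:71367706-71368005, minus strand) and Slc25a13 (chr6:6217124-6217423, minus strand). They are written 5′ to 3′ on the strand of the gene, and capitals mark CACGTG, the E-box bound by MYC and related factors, and CCGGAA, the core of ETS-type sites, searched on both strands.
Slc25a3: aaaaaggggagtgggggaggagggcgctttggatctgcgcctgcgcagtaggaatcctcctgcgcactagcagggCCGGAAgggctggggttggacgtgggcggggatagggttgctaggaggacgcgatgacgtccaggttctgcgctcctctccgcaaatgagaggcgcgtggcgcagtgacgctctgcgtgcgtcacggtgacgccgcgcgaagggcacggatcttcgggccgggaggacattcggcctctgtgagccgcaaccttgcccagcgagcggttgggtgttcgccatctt
Slc25a4: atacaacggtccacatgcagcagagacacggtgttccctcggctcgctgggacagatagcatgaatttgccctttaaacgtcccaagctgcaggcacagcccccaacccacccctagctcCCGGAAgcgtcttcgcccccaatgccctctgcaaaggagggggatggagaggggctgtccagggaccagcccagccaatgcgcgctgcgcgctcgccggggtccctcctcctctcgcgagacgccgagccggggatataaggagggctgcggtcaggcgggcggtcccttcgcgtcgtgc
Slc25a31: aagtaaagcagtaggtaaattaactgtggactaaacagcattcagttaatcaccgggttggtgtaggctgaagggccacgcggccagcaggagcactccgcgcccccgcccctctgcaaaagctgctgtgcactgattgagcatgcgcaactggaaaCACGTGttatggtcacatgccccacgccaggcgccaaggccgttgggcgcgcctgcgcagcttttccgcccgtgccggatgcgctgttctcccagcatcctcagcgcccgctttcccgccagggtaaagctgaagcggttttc
Slc25a12: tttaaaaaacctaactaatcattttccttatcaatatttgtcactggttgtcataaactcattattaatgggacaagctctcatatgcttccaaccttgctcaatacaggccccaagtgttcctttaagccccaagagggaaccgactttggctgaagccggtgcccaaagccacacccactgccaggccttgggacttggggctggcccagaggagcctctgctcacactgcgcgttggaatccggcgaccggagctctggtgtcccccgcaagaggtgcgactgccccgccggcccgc
Slc25a13: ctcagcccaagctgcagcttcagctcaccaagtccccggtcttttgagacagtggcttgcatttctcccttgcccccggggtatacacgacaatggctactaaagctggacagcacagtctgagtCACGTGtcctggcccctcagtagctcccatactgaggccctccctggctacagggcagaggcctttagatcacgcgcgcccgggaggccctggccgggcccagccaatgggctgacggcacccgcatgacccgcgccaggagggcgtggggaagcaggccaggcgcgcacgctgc

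None of these 5 windows held a base of a peak in any list, and only Slc25a22 and Slc25a42 among the 32 matched carriers had a peak in theirs. The Slc25a3 window held 31 CG dinucleotides, Slc25a4 25, Slc25a31 22, Slc25a12 12 and Slc25a13 17, while the median over all 32851 windows of the table was 7. The unmarked member was thus lower in CG than its marked relative in the first pair and higher in the second. The start of the Slc25a4 window lay 222 bases from the GENCODE start, against 16 bases for Slc25a31. The Slc25a4 window thus lay mostly inside the gene body, and the first pair was not compared at like positions. CCGGAA was present in 10 of 24 windows of marked carriers and in 1 of 8 of the others, compared with 14.9% of all windows. CACGTG was present in 2 of 24 and 3 of 8, compared with 7.15% of all windows. The motifs had no overlapping match in the windows shown, and a match describes the letters only.

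The mark itself lay inside the genes. The following 300 bases of Slc25a3 (GRCm38 chr10:91118639-91118938, minus strand, written 5′ to 3′ along the gene) lay in a peak of all 4 lists and began 5121 bases after the start site. They are shown as a stretch under the strongest carrier signal, with the 182 bases of exon 5 in capitals and the flanking introns in lower case.
Slc25a3 body: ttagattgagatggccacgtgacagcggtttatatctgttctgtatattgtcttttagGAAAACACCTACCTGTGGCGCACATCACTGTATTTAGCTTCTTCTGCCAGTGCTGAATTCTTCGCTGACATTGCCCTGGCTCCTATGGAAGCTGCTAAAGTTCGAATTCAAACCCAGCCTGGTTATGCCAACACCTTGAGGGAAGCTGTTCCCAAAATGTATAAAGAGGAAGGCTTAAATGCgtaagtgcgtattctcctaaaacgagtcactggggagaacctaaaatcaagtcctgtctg

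This stretch had 8 CG dinucleotides and 44.7% G and C, against 31 and 65.7% in the promoter window of the same gene. Pileup, the depth of extended H3K36me3 fragments averaged over a peak, was divided by the tags of its library and is given per 1000000 tags. Averaged over the whole peak that held these bases, it was 0.849 in MEF, 0.569 in OSKM, 0.9103 in MEF B12 and 0.908 in OSKM B12. OSKM stood below the other 3 libraries.

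Peaks lay toward the 3′ end of the carriers. In MEF the 20% of the body nearest the end was 64.9% covered on average over the 32 marked carriers and the 20% nearest the start 4.59%. The end was the more covered part in 28 of 32 carriers in MEF, 24 in OSKM, 30 in MEF B12 and 30 in OSKM B12. These counts were not made over all marked genes. Both ends were less covered in OSKM than in MEF, at 44.9% and 0.757%, and in OSKM B12 they were at 72.8% and 4.86%. Of 20 equal bins along the gene body, bin 19 was 69.8% covered in MEF, 52.9% in OSKM, 75.9% in MEF B12 and 74.8% in OSKM B12. The values of all 9619 marked genes in that bin were 72.6%, 52.9%, 75.8% and 75.6% in the same order. In bin 5 the carriers were 10.8% covered in MEF and all marked genes 29.5%, and this difference was not tested. All marked genes were thus also more covered toward the end, so this rise is not particular to the carriers. The value of bin 1 in MEF, a mean of 3.12%, came from 1 carrier, Slc25a2, an ornithine carrier with a single exon that lies wholly inside protein-coding genes of the opposite strand.

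**Figure D1:**
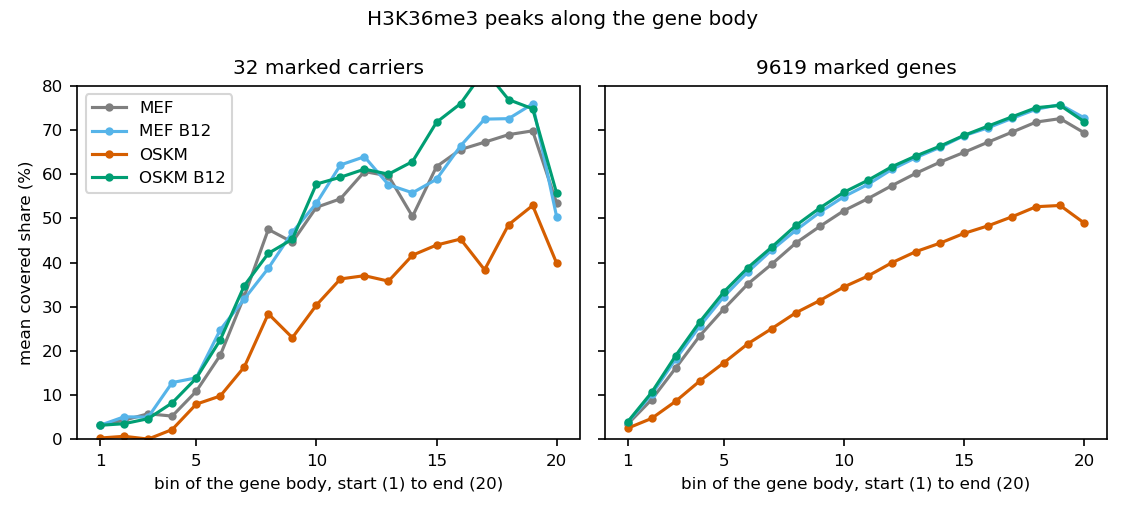
Mean covered share (%) of 20 equal bins from the start to the end of the gene body, for 32 marked carriers (left) and 9619 marked genes (right), 1 line per library. Coverage is higher toward the end in every library, and the OSKM line, at 52.9% in bin 19 of both panels, lies below the other 3.

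The covered share and the density are given for each carrier. The covered share is the percent of its gene body in peaks, and the density is the pileup per 1000000 tags summed over its bases in peaks and divided by the length of the body. Changes of density are log2 differences after 0.05 was added to each density, which makes the changes of weakly marked genes smaller, and a change of at least 1.5-fold on this scale was used as a threshold of size. The intervals given with ratios are 95% counting intervals from the estimated number of fragments in peaks, and they cover counting error only.

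Across the 32 marked carriers the mean covered share was 41.9% in MEF, 26.9% in OSKM, 43.6% in MEF B12 and 45.9% in OSKM B12. All marked genes had 47.5%, 32.5%, 50.4% and 50.9%. At least 50% of the body was in peaks in 16 marked carriers in MEF, 4 in OSKM, 17 in MEF B12 and 16 in OSKM B12. Over all marked genes these shares were 47.9% in MEF, 25.7% in OSKM, 52.4% in MEF B12 and 52.9% in OSKM B12. By density, OSKM alone was the lowest of the 4 libraries in 30 of the 32 carriers. Slc25a29 was lowest in MEF, and Slc25a45 was at 0 in both MEF and OSKM. The highest was OSKM B12 in 23 and MEF B12 in 9. These counts were not made over all marked genes, of which 96.8% were lower in OSKM than in MEF. The number of peaks was similar, with 134 in MEF, 123 in OSKM, 123 in MEF B12 and 124 in OSKM B12 over the 32 genes.

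**Figure D2:**
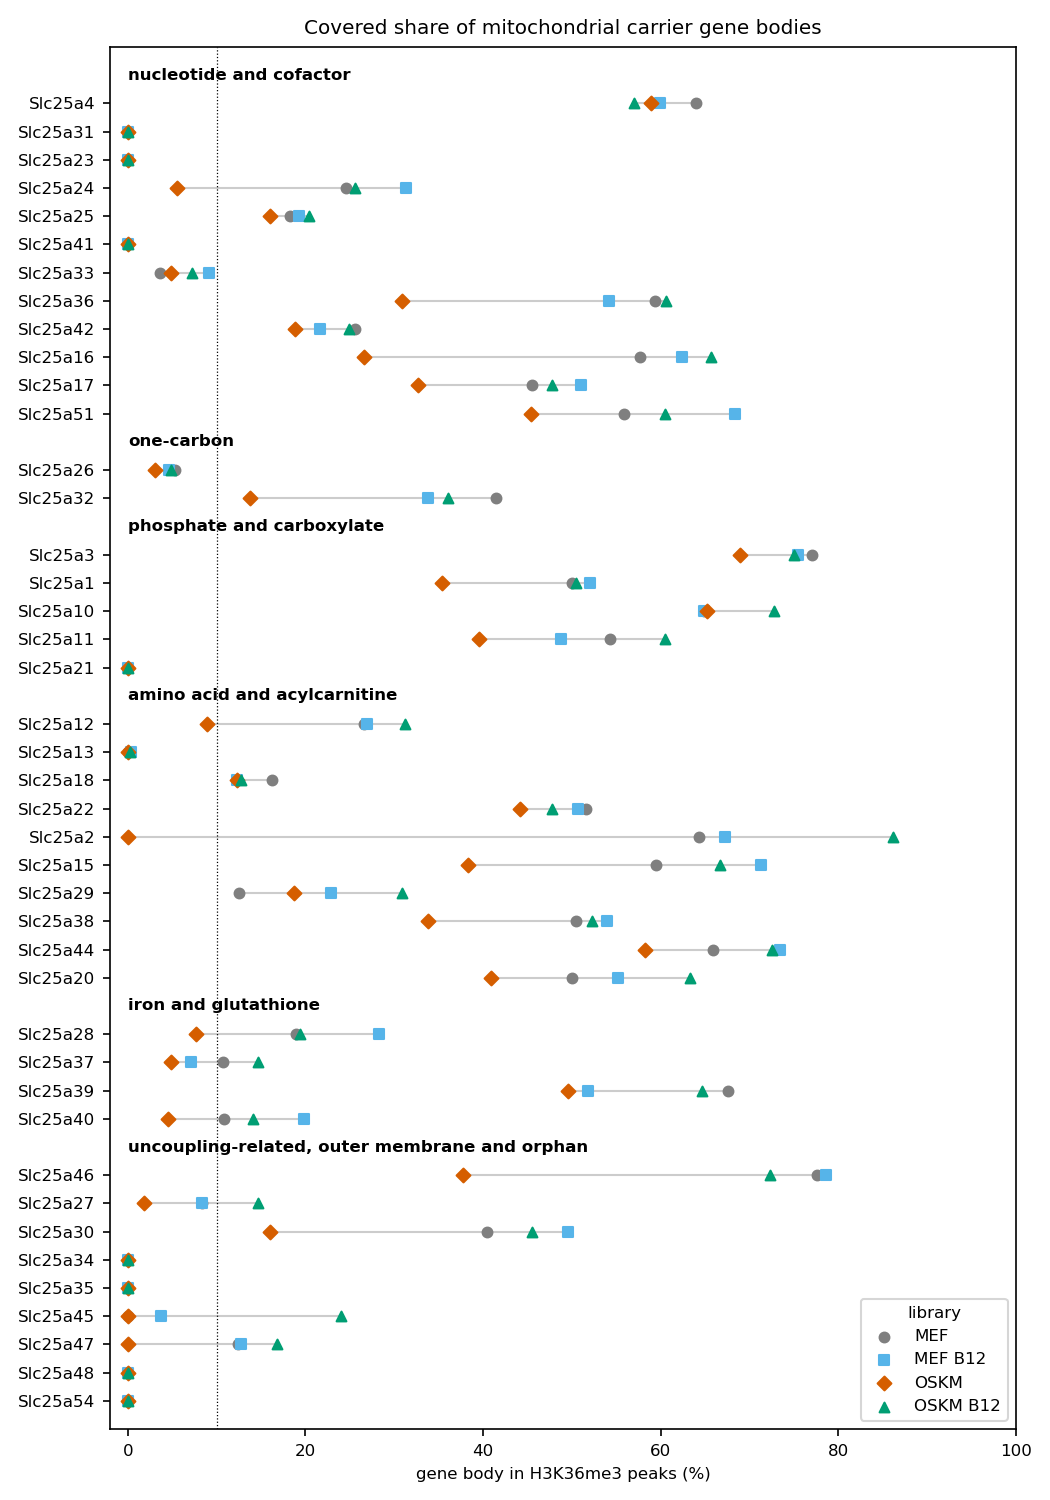
Percent of each gene body in H3K36me3 peaks for the carriers described here, grouped by substrate, with 1 point per library and the 10% limit for marked carriers as a dotted line. OSKM is the lowest point in most marked carriers, while Slc25a29 is lowest in MEF and 8 carriers are at 0 in all libraries.

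The phosphate and carboxylate carriers feed oxidative phosphorylation and the citric acid cycle, and 4 of 5 were marked. Slc25a3 (chr10:91116574-91124059, minus strand), the phosphate carrier, had the highest mean density of all 43 carriers. Its density was 0.654 in MEF, 0.381 in OSKM, 0.687 in MEF B12 and 0.681 in OSKM B12. OSKM stood below the other 3 libraries, which were close to each other. The density ratio of OSKM to MEF was 0.582 (0.508 to 0.668), and that of OSKM B12 to MEF B12 was 0.9904 (0.877 to 1.12). In MEF the first peak of Slc25a3 began in intron 2, 1717 bases after the start, and ran 4123 bases past the end. In OSKM the covered part began after 1876 bases, was split into 2 peaks and ran 2900 bases past the end.

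Slc25a10, the dicarboxylate carrier, had the smallest decrease of density from MEF to OSKM of the carriers with peaks in both. Its covered share was 64.9% in MEF, 65.2% in OSKM, 64.9% in MEF B12 and 72.8% in OSKM B12, and its density was 0.4003, 0.324, 0.456 and 0.543 in the same order. The covered share was not lower in OSKM than in MEF, and the density ratio of OSKM to MEF was 0.808 (0.689 to 0.949). Slc25a1, the citrate carrier, had densities of 0.329 in MEF, 0.208 in OSKM, 0.484 in MEF B12 and 0.4299 in OSKM B12. Slc25a11, which exchanges 2-oxoglutarate and malate, had 0.342, 0.2104, 0.354 and 0.419. Both were lowest in OSKM.

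Of the 13 nucleotide and cofactor carriers, 9 were marked. Slc25a4, the ADP/ATP carrier of heart and muscle, had densities of 0.476 in MEF, 0.273 in OSKM, 0.449 in MEF B12 and 0.479 in OSKM B12. Its covered share was 58.9% in OSKM and 57.02% in OSKM B12, and it was the only marked carrier with a lower share in OSKM B12 than in OSKM, while its density ratio in that comparison was 1.76 (1.42 to 2.17). Its testis relative Slc25a31 had no peak. Slc25a24, a calcium-regulated carrier of ATP-Mg and phosphate, had the largest log2 decrease of density from MEF to OSKM after Slc25a2. Its covered share was 24.6% in MEF, 5.53% in OSKM, 31.4% in MEF B12 and 25.5% in OSKM B12, and the density ratio of OSKM to MEF was 0.191 (0.156 to 0.235). Its relative Slc25a25 had smaller differences, with covered shares of 18.2%, 15.96%, 19.2% and 20.4%, while Slc25a23 and Slc25a41 of the same subgroup were at 0.

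The pyrimidine nucleotide carriers differed from each other too. Slc25a36 was covered over 59.4% in MEF, 30.9% in OSKM, 54.1% in MEF B12 and 60.6% in OSKM B12. Slc25a33 was covered over 3.59% to 9.19% and was lowest in MEF. The covered share of Slc25a16, linked to coenzyme A, was 57.6%, 26.5%, 62.4% and 65.7% (all 4 values in the order MEF, OSKM, MEF B12, OSKM B12), and that of Slc25a42, the coenzyme A carrier, was 25.6%, 18.8%, 21.7% and 24.9%. Slc25a17, the peroxisomal member of the family, had 45.5%, 32.6%, 50.98% and 47.7%. Slc25a51, the NAD carrier, had 55.8%, 45.4%, 68.4% and 60.5%. OSKM was the lowest library in each of these 4 genes.

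The 2 carriers closest to one-carbon metabolism differed in their level of the mark. Slc25a32 (chr15:39091231-39112716, minus strand) was covered over 41.4% in MEF, 13.7% in OSKM, 33.8% in MEF B12 and 36% in OSKM B12. Its density was 0.184, 0.05802, 0.184 and 0.181, so that the other 3 libraries lay together and OSKM apart. The density ratio of OSKM to MEF was 0.316 (0.262 to 0.381) and that of OSKM B12 to OSKM 3.12 (2.58 to 3.78). Over the 1445 bases of Slc25a32 in peaks of all 4 lists, the pileup ratio was 0.8895 for OSKM to MEF and 1.304 for OSKM B12 to OSKM, closer to 1 than the ratios of density. Each of these bases carries the mean pileup of its whole peak.

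Slc25a26 (chr6:94500331-94604672, plus strand) did not reach 10% in any list. Its covered share was 5.34% in MEF, 3.102% in OSKM, 4.596% in MEF B12 and 4.84% in OSKM B12, and its density 0.0283, 0.0131, 0.02103 and 0.0346. Its longest peaks lay at the 3′ end. There a peak of 21391 bases in MEF ran 18149 bases past the end of Slc25a26 into Lrig1, a convergent gene on the opposite strand. A peak in OSKM B12 did so as well. In MEF B12 the peak over Lrig1 entered Slc25a26 only from 104332 to 104341 bases after the start. A separate MEF B12 peak, from 100082 to 104019 bases after the start, lay inside the gene. Peaks carry no strand, so the signal at this end cannot be assigned to either gene. In OSKM the last peak ended 249 bases before the end of Slc25a26.

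**Figure D3:**
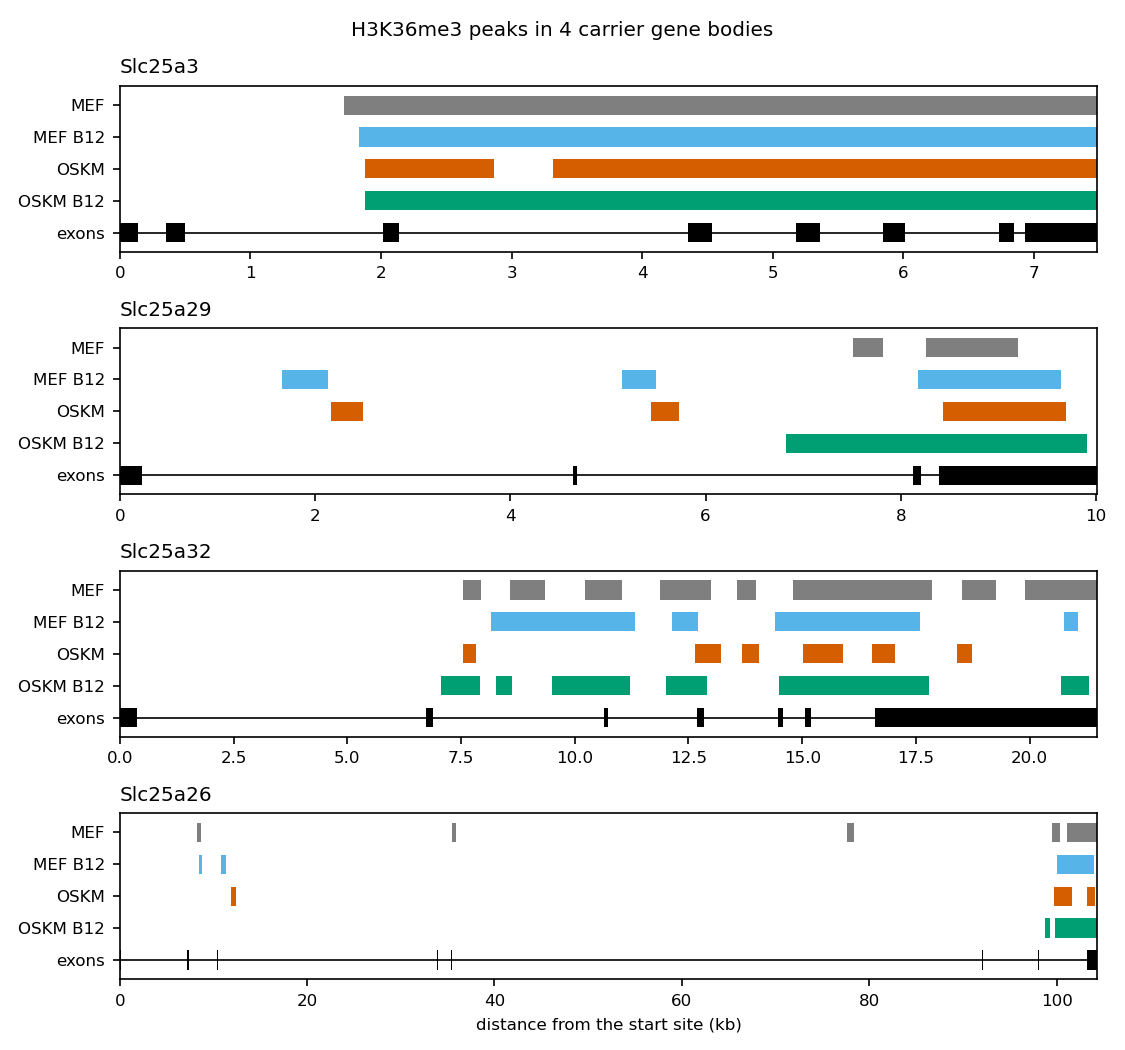
Peaks of the 4 libraries (coloured bars) and exons (black) along the gene bodies of Slc25a3, Slc25a29, Slc25a32 and Slc25a26, in kb from the start site. The Slc25a3 body is nearly filled from intron 2 on in all libraries, Slc25a32 has the fewest covered bases in OSKM, and Slc25a26 has its longest peaks in the last part of the gene.

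Of the 10 carriers of amino acids and acylcarnitines, 9 were marked. Slc25a44, a carrier of branched-chain amino acids, had the third highest mean density of the family, with 0.415 in MEF, 0.285 in OSKM, 0.524 in MEF B12 and 0.612 in OSKM B12. OSKM was the lowest and OSKM B12 the highest of its 4 values. Of the aspartate and glutamate carriers, Slc25a12 was covered over 26.6% in MEF, 8.95% in OSKM, 26.9% in MEF B12 and 31.2% in OSKM B12. Its peaks were spread along a body of 96687 bases, with 21 in MEF, 14 in OSKM, 24 in MEF B12 and 27 in OSKM B12. Slc25a13 had no peak in MEF or OSKM.

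Of the glutamate carriers, Slc25a22 was covered over 51.5% in MEF, 44.1% in OSKM, 50.7% in MEF B12 and 47.7% in OSKM B12, and its density was 0.242 in OSKM and 0.553 in OSKM B12. Slc25a18 was covered over 12.3% to 16.2%. Its peak ran into Atp6v1e1, a convergent gene on the opposite strand that was itself 68.2% covered in MEF, by 13445 bases in MEF and 4466 in OSKM, so this signal too cannot be assigned to 1 of the genes. Slc25a38, the glycine carrier, was covered over 50.5% in MEF, 33.8% in OSKM, 53.9% in MEF B12 and 52.3% in OSKM B12. Slc25a20, the carnitine and acylcarnitine carrier, was covered over 50.04%, 40.9%, 55.2% and 63.3%. OSKM was the lowest library in both.

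Slc25a29 (chr12:108825873-108835883, minus strand), a carrier of basic amino acids, was the only marked carrier with a higher density in OSKM than in MEF. Its covered share was 12.5% in MEF, 18.7% in OSKM, 22.8% in MEF B12 and 30.8% in OSKM B12, so that MEF was its lowest library. The density ratio of OSKM to MEF was 1.09 (0.788 to 1.52), and this interval held 1. Over the 770 bases in peaks of all 4 lists, each with the mean pileup of its whole peak, the ratio of OSKM to MEF was 0.704.

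The ornithine carriers also differed. Slc25a15 was covered over 59.5% in MEF, 38.3% in OSKM, 71.3% in MEF B12 and 66.7% in OSKM B12. Slc25a2 was covered over 64.3%, 0%, 67.3% and 86.1% and had the largest log2 changes of the family, −2.95 from MEF to OSKM and 3.23 from OSKM to OSKM B12. Both depend on the 0.05 that was added, since OSKM had no peak there. In MEF a peak of 1442 bases covered this body of 1369 bases in part, on the side of its start. With 100% of Slc25a2 inside other protein-coding genes, its values cannot be assigned to Slc25a2.

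All 4 carriers of iron and glutathione were marked. Slc25a39, a glutathione carrier, had the second highest mean density, with 0.496 in MEF, 0.297 in OSKM, 0.445 in MEF B12 and 0.614 in OSKM B12. Its relative Slc25a40 had densities of 0.0493, 0.0163, 0.0842 and 0.0627. The mitoferrins, which carry iron, were both lowest in OSKM. Slc25a28 was covered over 18.9% in MEF, 7.72% in OSKM, 28.2% in MEF B12 and 19.4% in OSKM B12. Slc25a37 was covered over 10.7%, 4.85%, 7.14% and 14.6%. Within each pair the order of the members by covered share was the same in all 4 libraries.

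The remaining 9 carriers were uncoupling-related, of the outer membrane or of less defined substrate, and 5 were marked. Slc25a46, an outer membrane protein of mitochondrial dynamics, was covered over 77.6% in MEF, 37.8% in OSKM, 78.6% in MEF B12 and 72.3% in OSKM B12. Its peaks lay in 28.5% of the 20% of the body nearest the start in MEF and in 0% in OSKM. Slc25a30, related to uncoupling proteins, was covered over 40.5%, 15.96%, 49.5% and 45.5%. Slc25a45 had no peak in MEF or OSKM, 3.75% of its body in peaks in MEF B12 and 23.98% in OSKM B12. Slc25a47 was covered over 12.4%, 0%, 12.7% and 16.8%, and Slc25a27, also related to uncoupling proteins, over 8.35%, 1.78%, 8.38% and 14.6%. Slc25a45 and Slc25a27 entered the marked carriers through the library in which they were highest, so that their differences follow in part from this choice.

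The comparison of OSKM with MEF asked how the mark differs during reprogramming. The median log2 change of density over the 32 marked carriers was −0.64, compared with −0.70 over all marked genes. Density was lower in OSKM in 30 of the 32 carriers, beside 96.8% of all marked genes, and 19 of 32 were at least 1.5 times lower, beside 66.8% of all marked genes. The counting interval of the ratio lay below 1 in 28 of the 29 carriers with peaks in both lists, a count that was not made over all marked genes. By group, 6 of 9 marked nucleotide and cofactor carriers were at least 1.5 times lower, 2 of 4 phosphate and carboxylate carriers, 5 of 9 amino acid and acylcarnitine carriers, 2 of 4 iron and glutathione carriers, 3 of 5 of the uncoupling-related and remaining carriers, and Slc25a32. The ratio of mean covered share was 0.643, beside 0.684 for all marked genes. With only peaks of −log10 q of at least 5, the median of the carriers was −1.06 and their covered ratio 0.147. Under this limit 23 of 43 carriers reached 10% in at least 1 list. Values under it were not computed over all marked genes, here and in the comparisons below.

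The comparison of OSKM B12 with OSKM asked what differs when vitamin B12 is added during reprogramming. The median log2 change was 0.96, and 0.98 over all marked genes. Density was higher with vitamin B12 in all 32 marked carriers, beside 98.8% of all marked genes, and 31 of 32 were at least 1.5 times higher, beside 93.5% of all marked genes. All 32 passed the 10% limit in OSKM B12, beside 9302 of the 9619 marked genes. A carrier below 10% in OSKM B12 could be marked through another list, but none was. Slc25a27 and Slc25a45 were marked through OSKM B12 only, so these counts follow in part from the choice of carriers. The carrier that did not reach 1.5-fold was Slc25a18, with a log2 change of 0.56. After Slc25a2 the largest changes were in Slc25a45 (1.56) and Slc25a47 (1.55), which had no peak in OSKM. The ratio of mean covered share was 1.704, and 1.56 for all marked genes. Under the stricter limit on q the median of the carriers was 1.66 and their covered ratio 8.12, without a value over all marked genes beside them.

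In cells without doxycycline the difference with vitamin B12 was smaller in size. The median log2 change from MEF to MEF B12 was 0.19, and 0.21 over all marked genes, and 0 of 32 carriers were at least 1.5 times higher, beside 4.65% of all marked genes. Density was higher in 26 carriers and lower in 6, beside 90.5% and 8.86% of all marked genes. Covered share was higher in 21 carriers and lower in 11, beside 70.5% and 28.3% of all marked genes. In percentage points, the largest increases of covered share were in Slc25a51 (12.6), Slc25a15 (11.8) and Slc25a29 (10.3). The largest decreases of covered share, in percentage points, were in Slc25a39 (−15.7), Slc25a32 (−7.67), Slc25a11 (−5.52), Slc25a36 (−5.28) and Slc25a4 (−4.03). A lower covered share did not always go with a lower density, since the density ratio of Slc25a36 was 1.097 (1.02 to 1.18). The counting interval of the density ratio held 1 in 12 carriers, a count that was not made over all marked genes. Under the stricter limit on q the median was 0.026 and 5 carriers were at least 1.5 times higher.

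With vitamin B12 in both, OSKM B12 and MEF B12 were close. The median log2 change was 0.19, beside 0.05 over all marked genes. At least 1.5 times higher was 1 of 32 carriers, Slc25a45, beside 3.31% of all marked genes. Slc25a45 was marked through OSKM B12 only, so this count follows from the choice of carriers. With carriers marked by their mean covered share, the median was 0.14 and 0 carriers passed 1.5-fold. Density was higher in 23 of the 32 carriers and lower in 9, beside 62.4% and 37.4% of all marked genes. Covered share was higher in 18 carriers and lower in 14, beside 52.2% and 46.9% of all marked genes. The largest increases, in percentage points, were in Slc25a45 (20.2), Slc25a2 (18.8), Slc25a39 (12.8) and Slc25a11 (11.8). The largest decreases of covered share, in percentage points, were in Slc25a28 (−8.88), Slc25a51 (−7.89), Slc25a46 (−6.21), Slc25a24 (−5.83) and Slc25a40 (−5.67). The counting interval held 1 in 13 carriers, which was likewise not counted over all marked genes. Under the stricter limit on q the median was 0.036 and 4 carriers were at least 1.5 times higher. The 4 comparisons share libraries, so their values are not independent of each other.

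**Figure D4:**
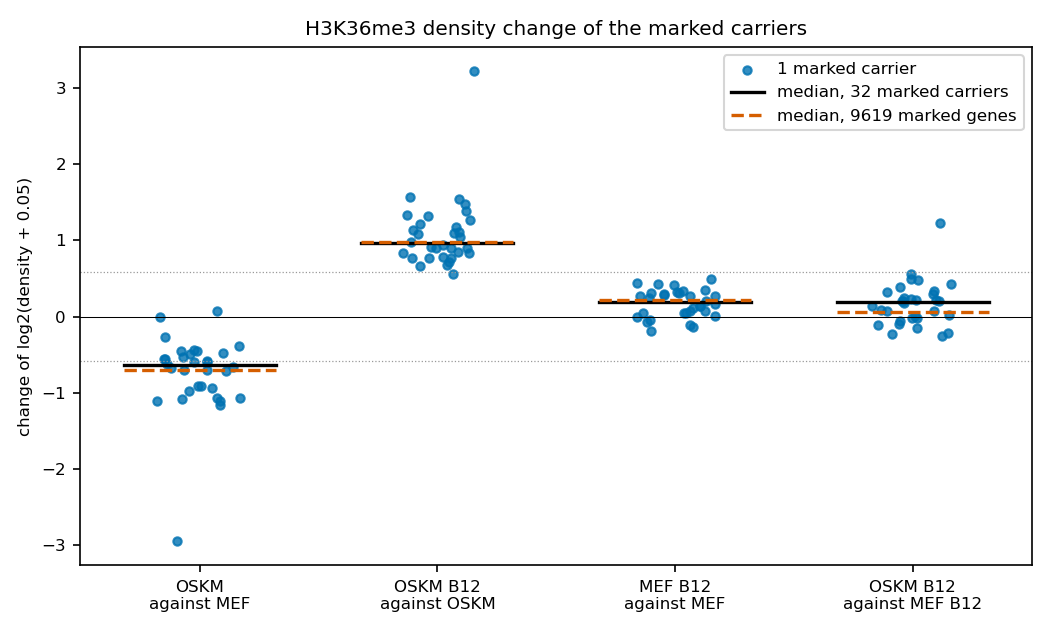
Change of log2(density + 0.05) for each of the 32 marked carriers (points) in the 4 comparisons, with the median of the carriers (solid line) and of all 9619 marked genes (dashed line); dotted lines mark a 1.5-fold change. Most carriers lie below 0 for OSKM against MEF, all lie above 0 for OSKM B12 against OSKM, and most lie near the medians of 0.19 in the other comparisons, with Slc25a2 as the farthest point at −2.95 and 3.23.

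Densities count bases outside peaks as 0, so the pileup was also compared over bases called in all lists. Each base carries the mean pileup of its whole peak, and peaks differ in extent between lists. The ratios below are therefore not depth measured at the shared bases alone. The marked carriers held 121053 bases that were in peaks of all 4 lists, in 28 genes. Over these bases the pileup per 1000000 tags was 0.612 in MEF, 0.478 in OSKM, 0.6799 in MEF B12 and 0.723 in OSKM B12. The ratio of OSKM to MEF was 0.782, that of OSKM B12 to OSKM 1.51, that of MEF B12 to MEF 1.11 and that of OSKM B12 to MEF B12 1.06. OSKM was below MEF in all 28 carriers, beside 96.8% of the 8859 marked genes with such bases, with ratios from 0.584 in Slc25a40 to 0.966 in Slc25a12. OSKM B12 was above OSKM in all 28, with ratios from 1.16 in Slc25a40 to 2.11 in Slc25a22. Of the 8859 genes, only 0.756% were lower in OSKM B12 than in OSKM, so both counts are near the share over all marked genes. The median ratios of these carriers were 0.793 and 1.503, beside 0.782 and 1.496 for the 8859 marked genes with such bases. By these ratios, with nothing added, 5 of the 28 carriers were at least 1.5 times lower in OSKM than in MEF, beside 5.73% of all marked genes with such bases. At least 1.5 times higher in OSKM B12 than in OSKM were 15 of the 28, beside 49.3%.

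**Figure D5:**
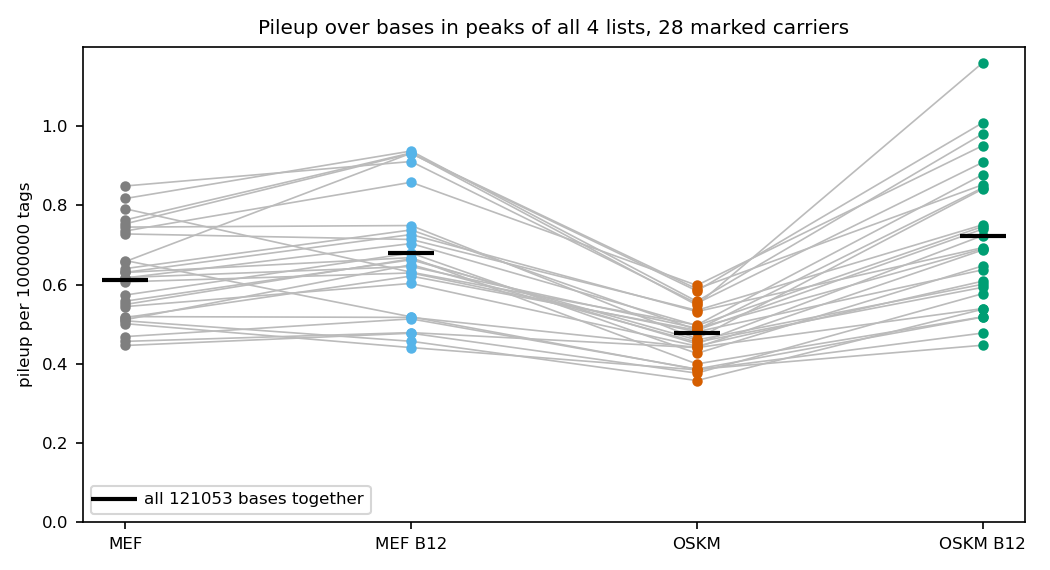
Pileup per 1000000 tags over bases in peaks of all 4 lists, for 28 marked carriers (points joined by a line per gene) in each library, with the value of all 121053 bases together as a black bar. Each base carries the mean pileup of its whole peak. Every line is lower in OSKM than in MEF and OSKM B12, and the bar stands at 0.612 in MEF, 0.478 in OSKM and 0.723 in OSKM B12.

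Other genes of mitochondrial transport were taken from a list of the import machinery, the porins, other transporters and carrier family members with other names. Of 35 listed genes 33 were found on chromosomes 1 to 19 and 30 were marked, beside 46.4% of all protein-coding genes. Their mean covered share was 41.5% in MEF, 29.3% in OSKM, 46.5% in MEF B12 and 47.3% in OSKM B12. Of the 30, 18 were at least 1.5 times lower in OSKM than in MEF, beside 66.8% of all marked genes. At least 1.5 times higher in OSKM B12 than in OSKM were 27, beside 93.5% of all marked genes. The median log2 changes were −0.66 and 1.03, beside −0.70 and 0.98 over all marked genes. All 13 import genes found and all 3 porin genes were marked. Mtch2, a carrier-related protein of the outer membrane, was covered over 85.2%, 56.7%, 87.95% and 87.8%. The uncoupling proteins Ucp1 and Ucp3 had no peak, while Ucp2 was covered over 30.8%, 30.5%, 47.6% and 42.8%.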

How the data were processed

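The samples analysed here, per the labels, were 1 H3K36me3 ChIP–seq library and 1 input for each condition. The labels spell the mark H3K36m3 in one field and H3K3me3 in another, and the methods give the doxycycline dose in mg where the labels give µg. The authors aligned reads to mm10 (the submitters' processing notes name Bowtie 0.12.9 and MACS2 2.2.6), removed duplicates and called broad peaks in each library against its own input. The deposited pileup is a signal at the library's own depth, since MACS2 scales the larger library of a pair, here the input. The deposited fold enrichment is a ratio over the local input and was used in no result. The authors give significance as the −log10 of a p-value and a q-value, which were used only to filter or rank peaks.

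With Python 3.11.15, numpy 2.4.6 and pandas 2.3.3, covered share, pileup per 1000000 tags and density (pseudocount 0.05) were computed over the longest protein-coding transcript of each gene. GRCm38 is the assembly called mm10. Overlaps were counted in bases. Depth was 29046913 to 33399267 tags and limits how weak an enrichment can appear as a peak. Reads outside peaks were not used here. No test was made, as no condition had replicates. The interval arithmetic was tested on simulated data.

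The carriers and all gene lists were chosen with earlier results of these data known. Genes given with most values were the one-carbon carriers, the 5 carriers with the highest mean density, those with the largest and smallest changes, those lacking a peak in a list or moving against the median, and related pairs. The remaining carriers are given by role, except 1 that is counted but not reported here by name. The alternatives were stricter peaks (−log10 q of at least 5), equal peak numbers, merging of peaks at most 1 kb apart, bases in 1 gene only, other limits for a marked carrier, other scaling, a pseudocount of 0.01 and a 2-fold threshold. Promoter windows were those of RefSeq nearest to the GENCODE start.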

Additional observations from a re-analysis of the deposited data

Results flagged for a closer look

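Density of the marked carriers differed in direction between the cells without and with vitamin B12 when OSKM was set against MEF. The median log2 change was −0.64 from MEF to OSKM and 0.19 from MEF B12 to OSKM B12, beside −0.70 and 0.05 over all marked genes. Of the 32 carriers, 21 were lower in the first comparison and higher in the second. Of all marked genes, 96.8% were lower in the first and 62.4% higher in the second, and the share with both was not computed. The difference in direction is thus not particular to the carriers. With 1 library per condition the difference between these effects was not tested, and the 2 comparisons hold different libraries.

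The density of 6 marked carriers was lower in MEF B12 than in MEF and higher in OSKM B12 than in OSKM. Of all marked genes, 8.86% met the first condition and 98.8% the second, and the share that met both was not computed. The pair of log2 changes was −0.045 and 3.23 in Slc25a2, −0.078 and 0.71 in Slc25a4, −0.011 and 0.56 in Slc25a18, −0.19 and 0.84 in Slc25a37, −0.14 and 0.94 in Slc25a39, and −0.11 and 0.68 in Slc25a42. The counting interval of the ratio of MEF B12 to MEF held 1 in all of these but Slc25a37, where it ran from 0.616 to 0.924. Over bases in peaks of all 4 lists, which Slc25a2 lacked, the pileup ratio of MEF B12 to MEF was above 1 in the others. It was 1.005 in Slc25a4, 1.147 in Slc25a18, 1.059 in Slc25a37, 1.167 in Slc25a39 and 1.069 in Slc25a42. Each base carries the mean pileup of its whole peak, and peaks differ in extent. These ratios therefore cannot decide whether depth at the shared bases was lower in MEF B12. These differences were not tested either.

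On the X chromosome, outside the rule, 3 further carriers had peaks in MEF. Slc25a5, the ADP/ATP carrier ANT2, had 48.5% of its gene body in MEF peaks, Slc25a53 23.1% and Slc25a14 11.2%.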

How the results depend on the processing

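Of 110 values computed under the alternatives, 77 stayed within their counting interval, or within 1.5 times for counts, 32 moved beyond it and 1 changed direction. The ratio of mean covered share of MEF B12 to MEF was 0.985 with peaks at most 1 kb apart merged, against 1.04. The interval of a median came from the estimated fragments in peaks of the marked carriers together. That of a covered ratio came from their number of peaks and was wide, at 0.504 to 0.822 around 0.643 for OSKM against MEF. The tally thus joins unlike limits. Medians are given as log2 changes in the order OSKM against MEF, OSKM B12 against OSKM, MEF B12 against MEF and OSKM B12 against MEF B12. With peaks of −log10 q of at least 5 they were −1.06, 1.66, 0.026 and 0.036, the covered ratios of the first pair of comparisons were 0.147 and 8.12, and 5 and 4 carriers were at least 1.5 times higher in the last pair. With a pseudocount of 0.01 the first 3 medians were −0.79, 1.26 and 0.22, and 3 and 5 carriers passed in the last pair. Over bases in peaks of all 4 lists, an alternative added after seeing the data, the medians were −0.34, 0.59, 0.14 and 0.091, with 5, 15, 0 and 0 of 28 carriers past 1.5-fold. Without division by tags, medians of 0.83 (OSKM B12 against OSKM) and 0.052 (MEF B12 against MEF) were found. Past 2-fold were 7 carriers in the first comparison and 15 in the second. With carriers marked at 50% or more there were 18, all 18 of them 1.5 times higher in OSKM B12 than in OSKM, and the last comparison gave a median of 0.16 and 0 carriers. With carriers marked by their mean covered share, also added later, the first median was −0.68 and the last 0.14 with 0 carriers, and with any peak as marked the median of OSKM B12 against OSKM was 0.91. The causes were not tested. An equal number of 65474 peaks per list, and bases in 1 gene only, moved none of these results beyond their interval. The depth, and a single library per condition, limit all of them. No paired analysis was possible because no condition had a second library to pair.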
